A study of Mus musculus with 6 samples.

Results

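The interferon response genes examined here are 40 mouse genes known as targets of type I or type II interferon, chosen by name. Of the 40, 37 had a probe set of their own among the 22180 genes measured. Oas1a and Gbp2 were covered only by probe sets that also match a near copy, and no probe set is listed for Ifi44. Liver RNA came from 6 male C57BL/6J mice, 1 Affymetrix whole-transcript array for each mouse. The 3 HKO mice carry floxed Slug alleles (gene symbol Snai2, a zinc finger repressor of the Snail family) with albumin-CreERT2, a Cre recombinase that acts after tamoxifen and is driven by the albumin promoter, which is active in hepatocytes. The 3 Con mice are littermates with floxed Slug (Slug f/f). Every mouse in both groups was given high fat food, with 60% of its calories as fat, from 8 weeks of age for 11 weeks. The sources used here do not say whether Con mice carry the Cre or how it was induced. The labels give each liver a number within its group, and p-values measure the spread between these 6 livers only. Since a piece of whole liver was assayed, fewer cells of a type and less RNA per cell cannot be told apart.

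Interferons are cytokines released when cells detect foreign or misplaced nucleic acid, or by activated lymphocytes. Type I interferons signal through a receptor to a complex that includes Stat2 and Irf9. It binds the interferon-stimulated response element (ISRE) in promoters and switches on antiviral genes such as the Ifit, Oas and Mx families and Isg15. Type II interferon, made mainly by T and NK cells, acts through the gamma-activated site (GAS) and raises the immunity-related GTPases, the guanylate-binding proteins and MHC class I antigen processing. In liver both hepatocytes and the resident immune and endothelial cells respond.

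The promoters of the members that the results below turn on are shown first, since they tell which of the 2 pathways' binding motifs lie near each start. They are RefSeq windows of 300 bases in GRCm38.p6, from 250 bases before an annotated transcript start, given 5′ to 3′ on the gene's strand. Capitals mark the ISRE core, GAAA then any 2 bases then GAAA, on either strand, and the GAS core, TTC then any 3 bases then GAA, which matches both strands at once. Ifit1, Ifit3, Isg15 and Bst2 are the antiviral genes that had both an ISRE core and a low p in HKO against Con. Igtp and Irgm2 are neighbouring GTPase genes that hold both motifs.
Ifit1 (chr19:34640639-34640938, plus strand): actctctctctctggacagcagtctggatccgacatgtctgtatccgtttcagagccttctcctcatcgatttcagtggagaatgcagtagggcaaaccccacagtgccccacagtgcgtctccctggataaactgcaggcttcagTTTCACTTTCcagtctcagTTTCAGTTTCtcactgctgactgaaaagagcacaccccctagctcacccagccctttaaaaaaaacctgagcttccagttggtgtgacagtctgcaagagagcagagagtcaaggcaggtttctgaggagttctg
Ifit3 (chr19:34583279-34583578, plus strand): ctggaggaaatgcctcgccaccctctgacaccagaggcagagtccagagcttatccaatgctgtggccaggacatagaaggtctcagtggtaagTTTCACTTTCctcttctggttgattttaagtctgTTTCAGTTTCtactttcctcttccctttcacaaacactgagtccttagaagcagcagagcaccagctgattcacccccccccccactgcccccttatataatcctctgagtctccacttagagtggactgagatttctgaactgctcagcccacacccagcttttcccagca
Isg15 (chr4:156200769-156201068, minus strand): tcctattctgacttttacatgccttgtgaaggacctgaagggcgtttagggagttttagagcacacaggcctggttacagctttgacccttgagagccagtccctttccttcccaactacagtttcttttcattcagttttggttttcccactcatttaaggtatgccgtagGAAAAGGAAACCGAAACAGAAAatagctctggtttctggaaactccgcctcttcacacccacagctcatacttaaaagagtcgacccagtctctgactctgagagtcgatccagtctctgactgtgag
Bst2 (chr8:71537423-71537722, minus strand): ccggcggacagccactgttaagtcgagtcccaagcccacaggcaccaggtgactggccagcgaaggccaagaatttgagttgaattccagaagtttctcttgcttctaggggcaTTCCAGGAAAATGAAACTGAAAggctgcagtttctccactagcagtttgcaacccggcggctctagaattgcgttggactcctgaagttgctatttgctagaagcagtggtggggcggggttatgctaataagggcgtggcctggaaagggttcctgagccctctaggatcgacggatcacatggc
Igtp (chr11:58199306-58199605, plus strand): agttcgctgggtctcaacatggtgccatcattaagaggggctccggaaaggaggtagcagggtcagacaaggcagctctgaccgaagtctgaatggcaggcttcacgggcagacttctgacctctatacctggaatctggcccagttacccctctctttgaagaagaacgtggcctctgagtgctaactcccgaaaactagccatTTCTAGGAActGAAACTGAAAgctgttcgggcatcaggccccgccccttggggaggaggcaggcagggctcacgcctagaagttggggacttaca
Irgm2 (chr11:58214727-58215026, plus strand): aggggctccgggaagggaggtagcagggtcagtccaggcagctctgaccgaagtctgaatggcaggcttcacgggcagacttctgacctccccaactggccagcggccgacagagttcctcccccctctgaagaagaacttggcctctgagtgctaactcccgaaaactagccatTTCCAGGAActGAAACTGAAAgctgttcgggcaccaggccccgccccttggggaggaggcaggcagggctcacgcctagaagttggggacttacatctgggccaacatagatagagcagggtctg

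Isg15 held 3 ISRE cores that overlap one another, and Bst2 held 2 that overlap, the first of them also overlapping a GAS core by 3 bases. In Igtp and Irgm2 the GAS core stood 2 bases before the ISRE core. These 2 windows are near copies, with a longest shared run of 61 bases. A window was found for 31 of the 40 genes, and 17 of the 31 (54.8%) held an ISRE core in at least 1 window, against 3.99% of 27025 genes with a window. A GAS core was found in 9 of the 31 (29%), against 9.55% of those genes. All 6 GTPase genes with a window held an ISRE core and 3 held a GAS core, while 7 of 14 antiviral effectors held an ISRE core and 4 a GAS core. Among the 8 members with a low p, 4 of the 6 with a window held an ISRE core, Oasl1 and Trim25 being without, against 11 of 22 other measured members with a window. Matches are letters only and are not shown to be bound in these livers.

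**Figure D1:**
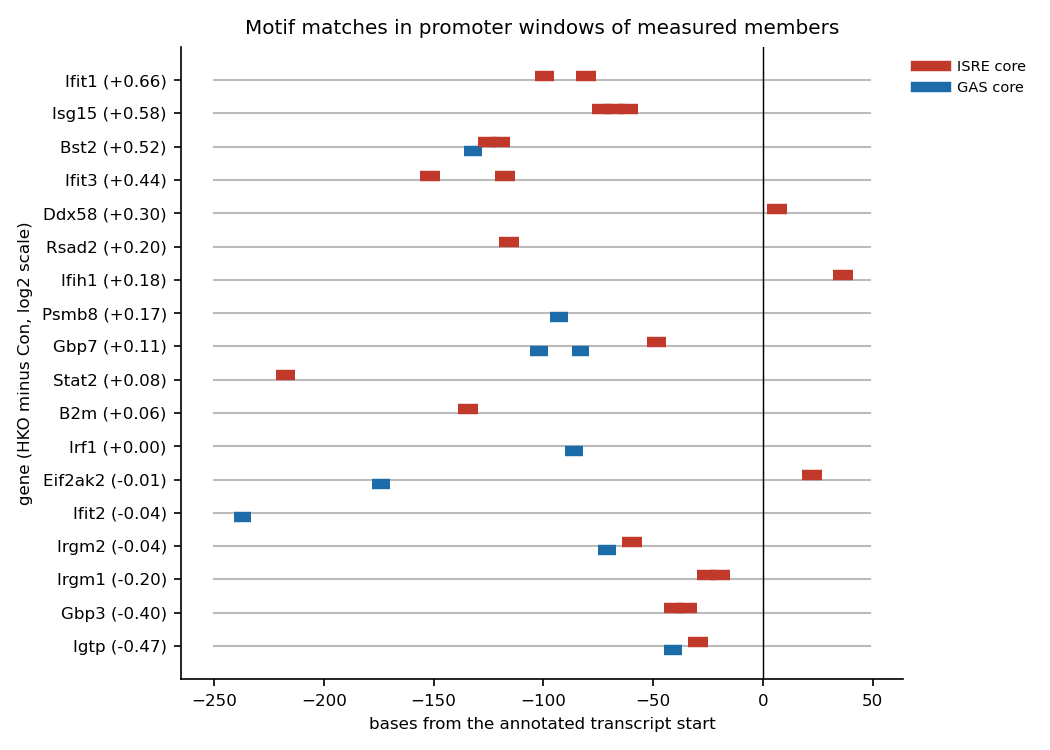
Positions of ISRE cores (red) and GAS cores (blue) in the promoter windows of the 18 measured members that hold a match, in bases from the annotated start at 0, ordered by the HKO minus Con difference on the log2 scale. Among these 18 Ifit1, Isg15, Bst2 and Ifit3 stand at the top, and both Igtp and Gbp3 at the bottom hold ISRE cores as well. Members with no window or no match, such as Mx2, Usp18, Oasl1 and Trim25, are not drawn.

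Values below are the authors' log2 values for a probe set, so a difference of 1 is a doubling of array signal. No level is compared between genes. The targeted gene was checked first. Snai2 stood at 4.62, 5.23 and 5.69 in HKO livers, against 7.74, 7.69 and 7.39 in Con livers. The difference of -2.43 ± 0.25 (SE, limma adjusted p = 0.0145) runs as the labels say. It did not pass without HKO replicate 2 (adjusted p = 0.0621), Con replicate 1 (0.0758) or Con replicate 2 (0.0927). An exact permutation test (two-sided) cannot go below p = 0.1 with 3 livers a group, and Snai2 reached it. The arrays were alike, with correlations over all genes of 0.989 to 0.992 within groups and 0.986 to 0.988 across groups. Of the 7 hepatocyte markers, each had a level above the median over genes and 0 had an unadjusted p under 0.05. At that threshold 5.31% of all genes were higher and 6.56% lower.

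In HKO livers 8 interferon targets had an unadjusted p under 0.05, and each had higher values in every HKO array than in any Con array. They were Ifit1, Isg15, Usp18, Bst2, Oasl1, Ifit3 and Trim25, by 1.19-fold to 1.59-fold, with Mx2 beside them at a low level. Irf7, Ifih1, Rtp4, Parp14 and B2m also had no overlap between groups, by 1.04-fold to 1.18-fold, with an unadjusted p above 0.05. Of the 37 members, 0 passed the limma test after Benjamini-Hochberg adjustment over all genes, where 0.203% of genes (45 of 22180) passed. Among the 8120 genes with a mean level above 5, that share was 0.443%. Leaving out HKO replicate 1, 2 or 3 brought that count over all genes to 25, 6 or 16, and leaving out Con replicate 1 or 2 to 5 or 4. The lowest adjusted p of a member was 0.136, for Ifit1. At an unadjusted p under 0.05, 8 of 37 members (21.6%) were higher in HKO, against 5.31% of all genes. At the same threshold 0 members were lower, against 6.56% of all genes. The count lower was 1 (Gbp3) without HKO replicate 2, and 2 (Gbp3 and Igtp) when Con replicate 3 was left out. The members are known to move together, so they are not independent of each other. Among cell type markers, all 5 measured for B and plasma cells had higher means in HKO. Their summed linear signal was 209 to 324 in HKO livers and 122 to 155 in Con livers. Jchain and Ighm (the brightest of 7 probe sets) made most of that gap. The differences of Cd79a, Cd79b and Ms4a1 were 0.12, 0.10 and 0.02, and Cd79b and Ms4a1 lay below the median level over genes. The summed signal of monocyte and recruited macrophage markers, given below, was lower in each HKO liver than in each Con liver. The part of these cells in the members' values was not tested. Markers of sinusoidal endothelium summed to 1133 to 1197 in HKO livers and 1212 to 1230 in Con livers. Of these 6 markers, 3 had higher and 3 lower means in HKO, with the largest differences for Lyve1 (-0.57) and Pecam1 (-0.29). Markers of neutrophils, 4 of 5 below the median level over genes, summed to 48.1 to 52.8 in HKO livers and 49.8 to 65.3 in Con livers. All 5 had lower means in HKO. S100a8 was lower in every HKO liver than in any Con liver (unadjusted p = 0.00979 in limma). Its mean level of 2.39 is not shown to be above background.

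The HKO and Con values did not overlap in 14 members. In 13 of the 37 (35.1%) all HKO values were higher, against 8.05% of all genes, and in 1 (2.70%) all were lower, against 10.1%. Among genes with a mean level above 5, no overlap was found for 10.4% with HKO higher and 17.1% with HKO lower, an unadjusted p under 0.05 for 6.08% higher and 9.56% lower, and a higher HKO mean for 42.2%. The median difference over the members was 0.11, against -0.01 over all genes. It was 0.06 without Con replicate 3, and 0.17 when Con replicate 1 was left out. The mean was higher in HKO for 26 of the 37 members (70.3%), against 48.2% of all genes.

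**Figure D2:**
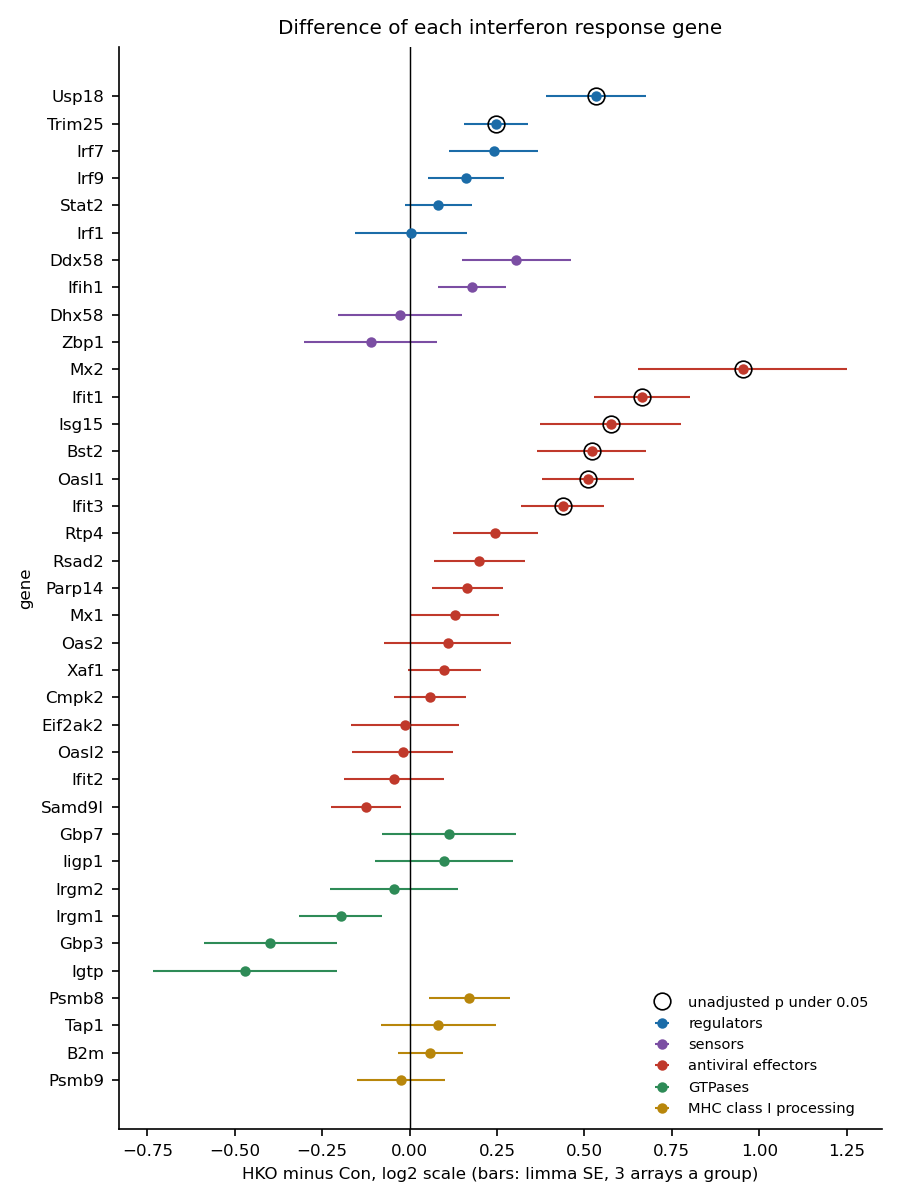
HKO minus Con difference of each of the 37 members on the log2 scale, with limma's standard error from 3 arrays a group, coloured by role. Open circles mark the 8 members with an unadjusted p under 0.05, which all lie to the right of 0, from Trim25 at 0.25 to Ifit1 at 0.66, with Mx2 beyond them but its Con level not shown to be above background, while the GTPases run from -0.47 to 0.11.

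Antiviral effectors, 17 of the 37 members, held most of these genes. Of the 17, 6 (35.3%) had an unadjusted p under 0.05, all higher in HKO, against 33.3% of the regulators and 5.31% of all genes. HKO values lay above every Con value in 8 (47.1%), against 50% of the regulators and 8.05% of all genes. They lay below every Con value in 1 (5.88%), against 10.1% of all genes. Leaving aside Mx2, whose Con level is not shown to be above background, the effectors' differences ran from -0.13 to 0.66. The median over the 17 was 0.16.

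Ifit1, whose protein binds viral RNA that lacks the host's cap modification, had 5.92, 5.85 and 6.19 in HKO livers, against 5.14, 5.32 and 5.51 in Con livers. The lowest HKO liver stood above the highest Con liver. The difference was 0.66 ± 0.14 (SE), or 1.59-fold, with an adjusted p of 0.136 in limma. Ifit1 passed when the variance was modelled with a trend on level (adjusted p = 0.0494) and when genes with a mean level of 5 or less were left out (0.0361). Those settings passed 215 of 22180 genes and 242 of 8120 genes.

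Ifit3, which works as a partner of Ifit1 in RNA binding, had 5.42, 5.42 and 5.71 in HKO livers, against 5.06, 5.17 and 5.01 in Con livers. The groups did not overlap, and the difference was 0.44 ± 0.12 (adjusted p = 0.226). Its neighbour on the chromosome, Ifit2, another RNA-binding member of the family, did not separate the groups. It had 4.14, 4.55 and 4.15 in HKO livers, against 4.18, 4.34 and 4.46 in Con livers, a difference of -0.04 ± 0.14. The differences of these 2 neighbours were not tested against each other.

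Isg15, a ubiquitin-like protein that is attached to other proteins during the response, had 6.22, 5.85 and 6.10 in HKO livers, against 5.02, 5.72 and 5.71 in Con livers. Con replicate 1 was the low one, and the other 2 Con livers lay close under HKO replicate 2. The difference was 0.58 ± 0.20 (unadjusted p = 0.0209, adjusted p = 0.333 in limma). The difference was 0.34 without Con replicate 1, and the unadjusted p exceeded 0.05 without HKO replicate 1 or HKO replicate 3.

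Oasl1, which in mice limits the production of the transcription factor Irf7, had 5.72, 5.67 and 5.82 in HKO livers, against 4.998, 5.44 and 5.24 in Con livers. The HKO livers lay within a narrow band above all Con livers, with a difference of 0.51 ± 0.13 (adjusted p = 0.212). Its neighbour Oasl2, an oligoadenylate synthetase, had 5.27, 5.04 and 5.53 in HKO livers, against 5.15, 5.40 and 5.36 in Con livers, and a difference of -0.02 ± 0.14. Oasl2 values were thus mixed between the groups.

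Bst2 encodes tetherin, a membrane protein that holds budding virus on the cell surface and also marks plasmacytoid dendritic cells. It had 8.63, 8.69 and 8.84 in HKO livers, against 8.10, 7.97 and 8.53 in Con livers. Con replicate 3 came near the HKO values, and the difference was 0.52 ± 0.16 (adjusted p = 0.271). Of the 5 plasmacytoid dendritic cell markers, 3 had higher and 2 lower means in HKO. Their summed linear signal was 119 to 137 in HKO livers and 116 to 129 in Con livers, and Ccr9 and Klk1 lay below the median level over genes. Tcf4, at a mean log2 value of 6.07, weighed most in this sum. Klk1 was higher in every HKO liver than in any Con liver (unadjusted p = 0.0283 in limma). Tcf4 was lower in every HKO liver than in any Con liver (unadjusted p = 0.138 in limma). Siglech, the defining marker, had 4.13, 4.55 and 3.96 in HKO livers, against 4.08, 3.98 and 4.06 in Con livers. The part of these cells in the Bst2 difference was not tested.

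Mx2, a dynamin-like antiviral GTPase, had 5.13, 4.27 and 4.21 in HKO livers, against 4.15, 3.31 and 3.2997 in Con livers. In both groups replicate 1 was higher than the other 2 arrays. The Con mean of 3.58 lies below the median over genes (3.94) and is not shown to be above background, so the means of 4.54 ± 0.51 in HKO and 3.58 ± 0.49 in Con (SD, n = 3 each) are given without a fold. The adjusted p was 0.289 in limma. Mx1 was dim in every array, between 2.06 and 2.38 in HKO livers and between 2.00 and 2.26 in Con livers.

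Among the other antiviral effectors, Rtp4 and Parp14 had no overlap between groups. Rtp4 had 6.87, 6.76 and 7.13 in HKO livers, against 6.67, 6.75 and 6.61 in Con livers. The difference was 0.24 ± 0.12, and 0.14 without HKO replicate 3. Parp14, a mono-ADP-ribosyltransferase, had 6.95, 7.07 and 6.92 in HKO livers, against 6.83, 6.88 and 6.74 in Con livers (difference 0.16 ± 0.10). Samd9l, an inhibitor of protein synthesis, was the only member with all HKO values below all Con values, at 5.11, 5.01 and 5.07 in HKO livers, against 5.17, 5.29 and 5.11 in Con livers. HKO replicate 1 and Con replicate 3 of Samd9l are equal to 2 decimals, and the difference was -0.13 ± 0.10. The neighbours Rsad2 (viperin, which makes a chain-terminating nucleotide) and Cmpk2 (a mitochondrial nucleotide kinase) stood at 0.20 and 0.06. Eif2ak2, the kinase PKR that halts translation, stood at -0.01, Oas2 at 0.11 and the pro-apoptotic Xaf1 at 0.10, and their groups overlapped. The probe set shared by Oas1a and Oas1g was dim, at 2.58 in HKO and 2.57 in Con on average.

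Regulators of the response had higher means in HKO in all 6 cases, with differences from 0.00 to 0.53 and a median of 0.20. Usp18, a protease that removes Isg15 from proteins and damps the type I receptor, had 6.48, 6.29 and 6.67 in HKO livers, against 5.73, 5.99 and 6.11 in Con livers. The groups did not overlap (0.53 ± 0.14, adjusted p = 0.223). Trim25, a ubiquitin ligase that acts on the RNA sensor RIG-I, had 7.92, 7.99 and 7.92 in HKO livers, against 7.68, 7.71 and 7.70 in Con livers. It had little spread in either group, and its difference was 0.25 ± 0.09 (unadjusted p = 0.0275, adjusted p = 0.360). Its unadjusted p exceeded 0.05 without HKO replicate 2 or any 1 Con array. Irf7, the factor that drives production of alpha interferons, had 6.76, 6.61 and 7.04 in HKO livers, against 6.51, 6.59 and 6.58 in Con livers. HKO replicate 3 was the high one, and HKO replicate 2 lay just above the Con values. The difference was 0.24 ± 0.13, and 0.12 without HKO replicate 3. The 2 partners of the ISRE-binding complex had smaller differences, 0.16 ± 0.11 for Irf9 and 0.08 ± 0.10 for Stat2, and their groups overlapped. Irf1, induced mainly by type II interferon, had 5.48, 5.91 and 5.27 in HKO livers, against 5.50, 5.57 and 5.57 in Con livers, and equal means to 2 decimals.

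Of the sensors of foreign nucleic acid, 0 of 4 had an unadjusted p under 0.05. Over all genes, 5.31% were higher and 6.56% lower at that threshold. Ifih1, which detects long double-stranded RNA, had 8.18, 8.09 and 8.16 in HKO livers, against 8.03, 7.97 and 7.88 in Con livers. Its groups did not overlap (0.18 ± 0.10). Ddx58, which encodes RIG-I, had 7.04, 7.11 and 6.62 in HKO livers, against 6.67, 6.76 and 6.43 in Con livers. HKO replicate 3 lay within the Con range, and the difference was 0.30 ± 0.16. Dhx58, their regulator, stood at -0.03 ± 0.18 and Zbp1, a sensor of Z-form nucleic acid that can trigger cell death, at -0.11 ± 0.19.

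**Figure D3:**
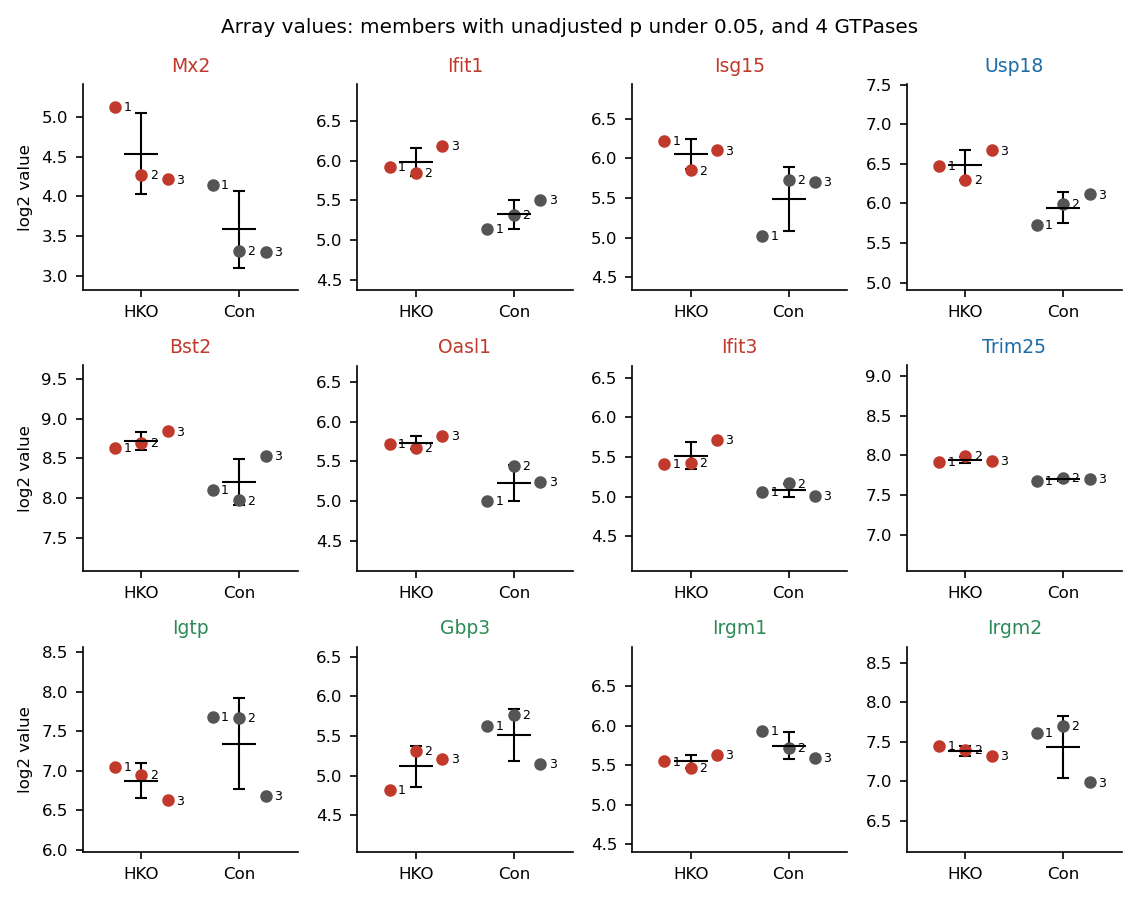
Array values on the log2 scale for the 8 members with an unadjusted p under 0.05 and for 4 GTPases, HKO at left and Con at right in each panel. Points are arrays numbered by replicate, with the group mean and SD (n = 3), and every panel spans the same range of log2 units. Ifit1 and Ifit3 separate the groups, while for Igtp, Gbp3 and Irgm2 Con replicate 3 lies apart from the other 2 Con livers.

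The interferon-induced GTPases, targets mainly of type II interferon, attack the vacuoles of intracellular microbes. Of the 6 measured, 4 had lower and 2 (33.3%) higher means in HKO, against a higher mean in 48.2% of all genes. An unadjusted p under 0.05 was found for 0, against 5.31% of all genes higher and 6.56% lower. All 6 overlapped between groups, and their difference from the antiviral effectors was not tested. Igtp, which stabilises other GTPases of its family in an inactive state, had 7.05, 6.95 and 6.63 in HKO livers, against 7.68, 7.67 and 6.69 in Con livers. Con replicates 1 and 2 stood above all HKO livers, and Con replicate 3 stood within the HKO range. The difference was -0.47 ± 0.26 (adjusted p = 0.541). It was -0.80 without Con replicate 3 (adjusted p = 0.146), -0.30 without Con replicate 1 and -0.31 without Con replicate 2. Gbp3, a guanylate-binding protein, had 4.82, 5.32 and 5.21 in HKO livers, against 5.63, 5.77 and 5.15 in Con livers. Its difference was -0.40 ± 0.19. It ran between -0.58 without Con replicate 3 and -0.25 without HKO replicate 1.

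Irgm2, the neighbour of Igtp, had 7.45, 7.40 and 7.32 in HKO livers, against 7.61, 7.70 and 6.99 in Con livers. Here Con replicate 3 was the lowest of the 6 arrays, as it also was for Gbp7 (6.89, 7.16 and 7.41 in HKO livers, against 7.22, 7.24 and 6.66 in Con livers) and Iigp1. Irgm1, which guards host membranes against the other GTPases, had 5.55, 5.47 and 5.63 in HKO livers, against 5.93, 5.72 and 5.60 in Con livers (-0.20 ± 0.12). Iigp1 stood at 0.10 ± 0.20. The probe set shared by Gbp2 and Gbp2b had 5.47, 5.77 and 5.36 in HKO livers, against 6.71, 6.71 and 5.51 in Con livers. It repeats the pattern of Igtp, with Con replicate 3 apart from its group.

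Over the role group, the median deviation of the 6 GTPases from the Con mean was -0.17, -0.12 and -0.18 in HKO replicates 1 to 3, and 0.18, 0.24 and -0.37 in Con replicates 1 to 3. For the 17 antiviral effectors the same medians were 0.20, 0.19 and 0.23 in HKO, and -0.02, 0.06 and -0.02 in Con. The median over the effectors was thus higher in each HKO array than in each Con array, although 8 of the 17 overlapped between groups. The median over the GTPases separated Con replicate 3 from the other 2 Con livers. Of all 37 members, 16 had their lowest value in Con replicate 3, and 14 had their highest in HKO replicate 3. The markers of T and NK cells, the main source of type II interferon, also differed among Con livers. Their mean log2 level over 11 markers was 3.46, 3.49 and 3.46 in HKO livers, against 3.84, 3.76 and 3.32 in Con livers. The summed linear signal of these markers was 140 to 151 in HKO livers and 125 to 174 in Con livers. Means were lower in HKO for 9 of the 11 and higher for 2, Cd4 (0.38) and Ncr1 (0.14). Of all 11 markers, 7 lay below the median level over genes, Cd3d, Cd3g, Cd4 and Cd8a included. Their part in the GTPase values was not tested.

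**Figure D4:**
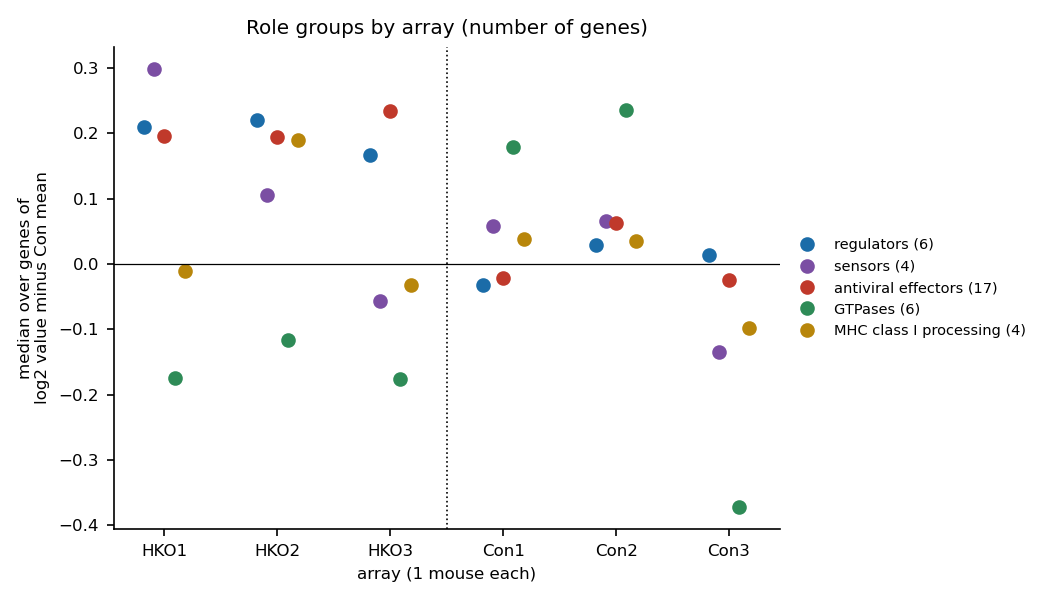
Median over the genes of a role group of the log2 value minus the Con mean, for each of the 6 arrays, with HKO at left. Antiviral effectors lie at 0.19 to 0.23 in the HKO arrays and at -0.02 to 0.06 in the Con arrays, and the GTPases drop to -0.37 in Con replicate 3.

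Genes of MHC class I antigen processing differed little. Tap1, a subunit of the peptide transporter, stood at 0.08 ± 0.17 and the neighbouring immunoproteasome subunits Psmb8 and Psmb9 at 0.17 ± 0.12 and -0.02 ± 0.13. In HKO livers Tap1 had 6.78, 7.30 and 6.72, against 6.79, 7.0009 and 6.76 in Con livers, with HKO replicate 2 the highest. B2m, the light chain of class I molecules, had 11.90, 11.92 and 11.93 in HKO livers, against 11.87, 11.89 and 11.82 in Con livers. Its groups did not overlap, by a difference of 0.06 ± 0.09 near the top of the array's range.

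**Figure D5:**
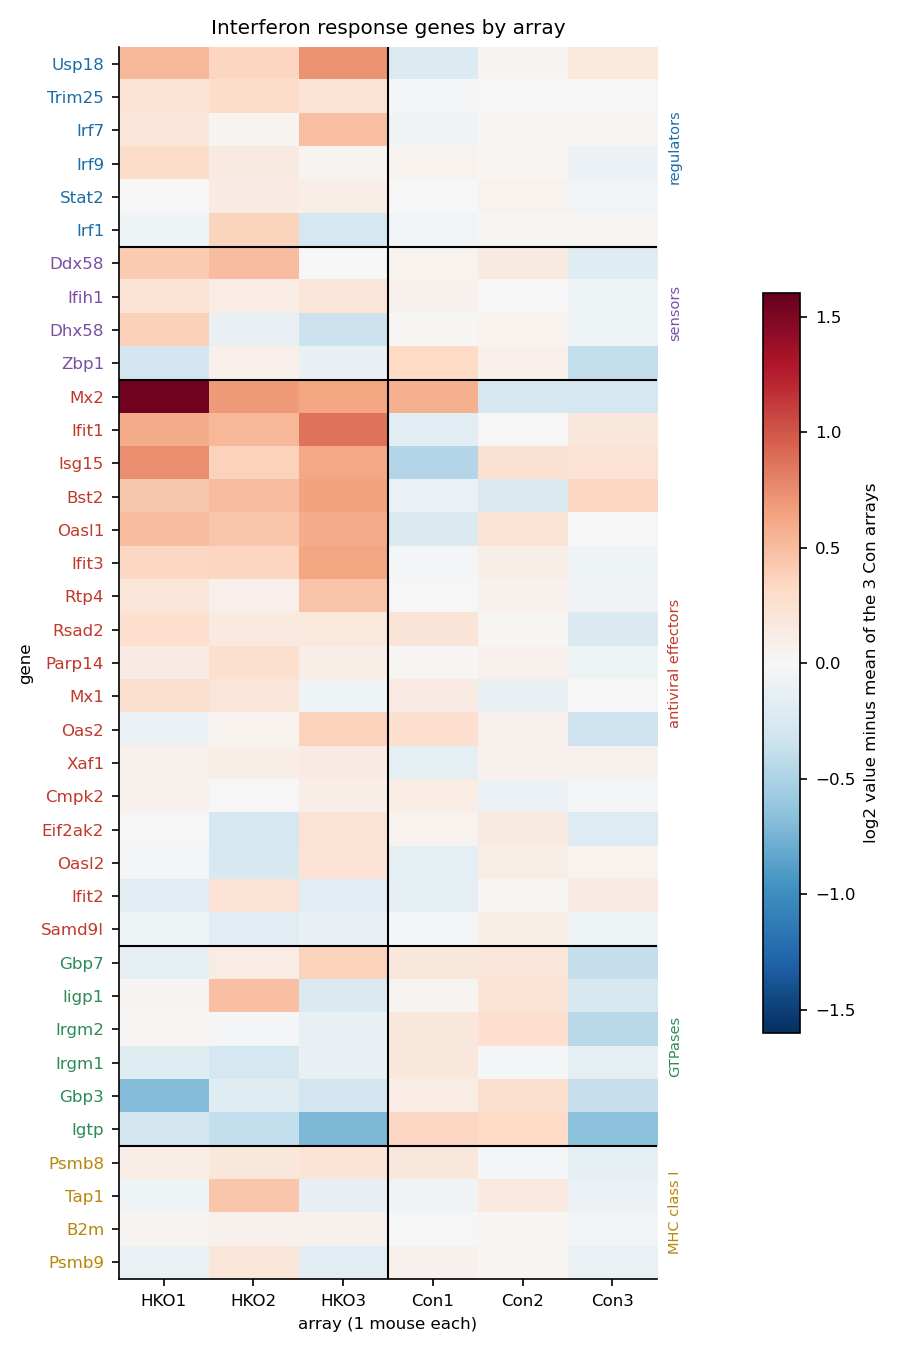
Log2 value minus the mean of the 3 Con arrays for each of the 37 members (rows, by role) in each array (columns, HKO at left), red above and blue below the Con mean. The upper antiviral rows are red in all 3 HKO arrays, and the Con replicate 3 column is blue for all 6 GTPases.

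The chain that leads to these targets was read from a further list of 40 ligands, receptors, kinases, factors, inhibitors and sensors, of which 37 had a probe set of their own. Again 0 passed over all genes in limma. At an unadjusted p under 0.05, 4 (10.8%) were higher, against 5.31% of all genes, and 4 (10.8%) were lower, against 6.56%. The 8 became 4 when HKO replicate 1, Con replicate 1 or Con replicate 2 was left out, and 3 when HKO replicate 3 or Con replicate 3 was. Ligands were mostly dim: Ifnb1 (mean level 2.27) and Ifng (2.72) lay below the median over genes, with differences of 0.08 and 0.11. The receptor chains stood at 0.10 for Ifnar1, 0.00 for Ifnar2, -0.10 for Ifngr1 and 0.05 for Ifngr2. Il10rb, a chain of the lambda interferon receptor, stood at -0.25 ± 0.10.

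Among the factors, Irf3, which starts transcription of beta interferon after sensing, had 6.15, 6.09 and 5.85 in HKO livers, against 5.56, 5.74 and 5.73 in Con livers. The groups did not overlap (0.36 ± 0.12, unadjusted p = 0.0170, adjusted p = 0.309 in limma). Irf2, which competes with Irf1 for promoters, had 8.17, 8.22 and 8.42 in HKO livers, against 7.93, 7.89 and 8.05 in Con livers (0.32 ± 0.11, adjusted p = 0.332). Myd88, the adaptor of most Toll-like receptors, stood at 0.44 ± 0.18 with overlapping groups. The feedback inhibitor Socs3 averaged 4.10 ± 0.24 in HKO and 3.70 ± 0.10 in Con (SD, n = 3 each), and the Con mean lies below the median over genes.

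Of the 10 sensors and adaptors, 2 (20%) were lower in HKO at an unadjusted p under 0.05, against 6.56% of all genes. At the same threshold 1 (Myd88, 10%) was higher, against 5.31% of all genes. Tlr7, a sensor of single-stranded RNA in macrophages, B cells and plasmacytoid dendritic cells, had 4.23, 4.25 and 4.26 in HKO livers, against 4.85, 4.84 and 4.55 in Con livers. Every HKO liver lay below every Con liver (-0.50 ± 0.11, unadjusted p = 0.00223, adjusted p = 0.167 in limma). Sting1, the adaptor for cytosolic DNA, had 4.36, 4.58 and 4.20 in HKO livers, against 4.65, 4.74 and 4.63 in Con livers (-0.29 ± 0.12). Ifnk was also lower (-0.29), at a mean level of 2.00 that is not shown to be above background. Beside these, all 6 markers of monocytes and recruited macrophages had lower means in HKO. Their summed linear signal was 66.7 to 91.2 in HKO livers and 108 to 139 in Con livers, with Ly6c2, Ccr2 and Itgax below the median level over genes. Only Gpnmb and Itgax had no overlap between groups, while Ly6c2, Ccr2, Itgam and Trem2 overlapped. Gpnmb averaged 3.89 ± 0.34 in HKO and 5.08 ± 0.37 in Con (SD, n = 3 each; limma adjusted p = 0.112). Itgax averaged 3.42 ± 0.13 in HKO and 4.44 ± 0.16 in Con (SD, n = 3 each; limma adjusted p = 0.0280), and its adjusted p was 0.0621 to 0.149 when any 1 of the 6 arrays was left out. The 7 markers of Kupffer and other macrophages summed to 936 to 1074 in HKO livers and 963 to 1158 in Con livers. Of these 7, 3 had higher and 4 lower means in HKO. Cd68 was lower in every HKO liver than in any Con liver (-0.40, unadjusted p = 0.00839 in limma). Clec4f was higher in every HKO liver than in any Con liver (0.20, unadjusted p = 0.0753 in limma). The part of these cells in the Tlr7 and Sting1 values was not tested.

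A second list held 74 other interferon targets, of which 66 had a probe set of their own. At an unadjusted p under 0.05, 5 of the 66 (7.58%) were higher and 2 (3.03%) lower, shares near those of all genes, and 33 had higher means. The count of 7 was 13 without Con replicate 3, where 1100 of 22180 genes were higher and 1385 lower at that threshold. The median difference over the 66 was 0.00, against 0.11 over the members. Apol9a and Apol9b, interferon-induced apolipoprotein L genes of mice, had the lowest p in it. Apol9a had 7.81, 7.26 and 7.97 in HKO livers, against 6.69, 6.60 and 6.87 in Con livers (0.96 ± 0.18, adjusted p = 0.113 in limma). Apol9b had 9.06, 8.50 and 9.11 in HKO livers, against 7.85, 7.99 and 8.20 in Con livers (0.88 ± 0.18, adjusted p = 0.128). The 2 genes are near copies, so their probe sets may share signal.

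Ddx60, an antiviral helicase, averaged 4.24 ± 0.09 in HKO and 3.75 ± 0.22 in Con (SD, n = 3 each), with the Con mean below the median over genes. Slfn2, a regulator of immune cell quiescence, had 4.76, 4.97 and 4.34 in HKO livers, against 5.39, 5.16 and 5.29 in Con livers (-0.59 ± 0.16). H2-T23, a non-classical class I molecule, stood at 0.40 ± 0.15. The guanylate-binding proteins again differed from one another. Gbp11 had 5.63, 7.34 and 7.79 in HKO livers, against 5.46, 5.42 and 4.76 in Con livers, so that HKO replicate 1 lay near the Con values while the other 2 HKO livers lay far above them (1.71 ± 0.49, adjusted p = 0.259). Gbp4 averaged 3.88 ± 0.44 in HKO, below the median over genes, and 4.47 ± 0.27 in Con (SD, n = 3 each). Probe sets of this family can take signal from near copies.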

How the data were processed

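The authors deposited 1 table of log2 values. The submitters' processing notes name RMA and R 3.3.0. RMA corrects background, equalises the arrays' distributions and summarises each probe set, which compresses differences of dim genes. Per the labels' protocols, 400 ng of total RNA went into each biotinylated cDNA. No source used here gives the array's genome build. Arrays have no read depth, and their number limits the precision.

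Of 41345 probe sets, 23521 carry 1 gene in the platform annotation, 1814 several and 16010 none listed. Of the first kind, 23328 matched a RefSeq table by Entrez identifier (GRCm38.p6), with 0 symbols changed. The brightest probe set stood for each gene, which gave 22180 genes, and each member had 1.

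HKO was compared with Con in limma 3.58.1 (R 4.3.3; lmFit and eBayes, group only, two-sided). P-values were adjusted by Benjamini-Hochberg across the 22180 genes and read at 0.05. Standard errors are limma's. Members, lists and named genes (an unadjusted p under 0.05, no overlap between groups, or extremes of a role group) were chosen with earlier results of these data known, so counts describe and no list was tested. The fit was tested on simulated data. The alternatives tried were other normalizations, filters, probe set choices and variance models, a replicate block, another threshold and leaving out each array. Figures were drawn with matplotlib 3.10.9.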

Additional observations from a re-analysis of the deposited data

How the results depend on the processing

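The count of 8 members with an unadjusted p under 0.05 and higher values in HKO lay between 7 and 10 under every alternative run, and 7 to 9 with 1 array left out. Usp18, Ifit1, Ifit3, Oasl1, Mx2 and Bst2 kept an unadjusted p under 0.05 without each of the 6 arrays in turn. The median over members kept its sign, from 0.06 to 0.17 with 1 array left out. One member, Ifit1, passed with a variance trend (1 of 37 members, beside 215 of 22180 genes). It also passed with genes above level 5 only (1 of 33 members, beside 242 of 8120 genes). The count of members lower at an unadjusted p was 1 (Igtp) with the replicate block and 0 to 2 with 1 array left out. Over all genes, 138 passed with genes above the median level only, 242 with genes above level 5 only, 215 with a variance trend, 115 at an adjusted p of 0.10, 3 with the replicate block and 4 to 32 with 1 array left out. Without variance shared between genes 0 passed in limma's linear model, while 1017 were higher and 1405 lower at an unadjusted p under 0.05. Snai2 missed the threshold in that model (-2.43, adjusted p = 0.234) and with the replicate block (-2.43, adjusted p = 0.0540), and ran from -2.69 to -2.15 with 1 array left out. Without shared variance the counts at an unadjusted p were 4 in the signalling chain and 4 among the other targets; with 1 array left out they ran from 3 to 6 and from 6 to 13. The causes were not tested.

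The replicate numbers are not known to pair the mice. Deviations of same-numbered HKO and Con arrays correlated over genes by 0.0323, 0.0160 and 0.0214. Every array correlated best with its own number, but all pairs lay near 0, from -0.0269 to 0.0323, so pairing is not shown. In the blocked fit the count of 8 stayed, but Trim25 left it (unadjusted p = 0.0539 in limma) and Ddx58 joined it (0.0295). There Mx2 had an adjusted p of 0.0607 and 11 of the other targets had an unadjusted p under 0.05, against 7 without the block. Of 22180 genes, 1156 were higher and 1388 lower at that threshold in the blocked fit. Members near 0 changed sign. After a second quantile normalization Dhx58 stood at 0.024, Oasl2 at 0.033, Eif2ak2 at 0.016 and Psmb9 at 0.012. With 1 array left out, Irf1 ran from -0.17 to 0.15, Dhx58 from -0.23 to 0.13, Zbp1 from -0.31 to 0.051, Ifit2 from -0.18 to 0.026, Oasl2 from -0.14 to 0.10, Oas2 from -0.058 to 0.24, Eif2ak2 from -0.14 to 0.11, Gbp7 from -0.076 to 0.24, Iigp1 from -0.093 to 0.27, Irgm2 from -0.27 to 0.089, Tap1 from -0.10 to 0.19 and Psmb9 from -0.13 to 0.047.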

Other observations

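Probe sets that match more than 1 gene stayed out of the tests, and 2 of those that cover listed interferon genes had no overlap between groups. Both were higher in HKO. Over all genes, no overlap was found for 8.05% with HKO higher and 10.1% with HKO lower. The set shared by Ifi47, an immunity-related GTPase, and the olfactory receptor gene Olfr56 had 4.59, 5.03 and 4.77 in HKO livers, against 4.03, 4.13 and 4.03 in Con livers. The set shared by Irf5, a factor that drives inflammatory cytokines and interferon, and Tnpo3 had 4.07, 4.19 and 3.97 in HKO livers, against 3.62, 3.44 and 3.75 in Con livers, all 3 Con values below the median over genes (3.94). Which of the genes gave the signal was not tested.

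The 3 chemokines of the type II list that share a receptor differed in their spread. Cxcl9, which attracts activated T cells, had 6.77, 7.83 and 6.65 in HKO livers, against 8.26, 8.09 and 7.02 in Con livers, with Con replicate 3 again the lowest Con liver (-0.71 ± 0.39, limma adjusted p = 0.532). Cxcl10 had 5.27, 6.81 and 6.64 in HKO livers, against 6.399, 6.28 and 5.76 in Con livers, a difference of 0.09 ± 0.38. Cxcl11 had 5.52, 5.82 and 5.76 in HKO livers, against 5.65, 5.35 and 5.44 in Con livers, a difference of 0.22 ± 0.13. The 3 were chosen after their values were seen.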
